A study of Homo sapiens with 4 samples.

Results

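The genes examined were the 8 subunits of condensin I and condensin II, taken by symbol from a count table of 60725 genes measured in human RPE1 cells. Both complexes share the ATPase pair SMC2 and SMC4. Condensin I adds NCAPD2, NCAPG and NCAPH, and condensin II adds NCAPD3, NCAPG2 and NCAPH2. RNA-seq compared cells transfected with the control siRNA Silencer Select Negative Control No. 2 with cells transfected with the Dharmacon pool against TOP2B, with 2 replicates in each group. RPE1 is a telomerase-immortalized line derived from the retinal pigment epithelium, and all 4 libraries came from the same RPE1 line carrying the SunTag system. Cells received 10 nM siRNA, were transfected again 48 h later and were collected 72 h after the second transfection, on day 5. The groups differed in their siRNAs as well as in TOP2B, so loss of TOP2B and other effects of either siRNA cannot be told apart.

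Condensins are ring-shaped motors that fold chromatin by extruding loops of DNA. In each ring the ATPase pair is closed by a kleisin subunit (NCAPH or NCAPH2), which carries a pair of HEAT-repeat subunits. Condensin II resides in the nucleus during interphase and starts chromosome condensation in prophase, while condensin I is mostly cytoplasmic until the nuclear envelope breaks down. Type II topoisomerases act beside condensins when mitotic chromosomes are shaped, and TOP2A rather than TOP2B is the form known for this role in dividing cells.

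Total counts per library lay between 20310259 and 23887013. After a filter that asked for 10 reads in 2 or more libraries, 15356 genes were tested, among them all 8 subunits, whose counts ranged from 484 to 9040 reads. TOP2B itself stood at 154.9 and 143.5 CPM (a gene’s reads scaled to a common library size, with TMM factors) in control and at 15.3 and 13.3 CPM in knockdown cells, a log2 fold change of -3.38 (standard error 0.14, adjusted p = 5.1e-06, edgeR's quasi-likelihood test). Of 10 markers of differentiated pigment epithelium, 5 passed the count filter, and RPE65, TYR and TTR had no read in any library. Of those that passed, MITF stood at 38.2 to 44.8 CPM and OTX2 at 11.2 to 13.4 CPM. BEST1, PMEL and SERPINF1 had 2.22 CPM or less in every library. The line markers KRT8, KRT18, VIM and CDH2 were abundant, while KRT7 stood at 9.27 to 21.0 CPM and TERT at 12.9 to 16.6 CPM. All 6 line markers summed to 2433 to 3068 CPM. The 6 immune markers summed to at most 0.668 CPM and the 5 endothelial markers to 9.21 to 13.8 CPM. The 5 neuronal markers summed to 72.1 to 82.3 CPM in control and 54.6 to 62.2 CPM in knockdown cells, led by SYT1, which fell by 0.45 on the log2 scale (adjusted p = 0.0493, same test). Mitochondrial genes held 5.66% and 5.67% of the control counts and 4.50% and 4.57% of the knockdown counts. The part of these shifts in the results for condensin was not tested.

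All 8 condensin subunits had more transcript in both TOP2B knockdown libraries than in either control library. The size of the change was modest, with a median log2 fold change of 0.33 (1.26-fold) and single values between 0.20 and 0.63. NCAPD2 of condensin I and NCAPH2 of condensin II passed the threshold of an adjusted p below 0.05 and rose, while the other 6 subunits did not pass it and 0 subunits were called lower. Of all genes tested, 27.7% showed the same separation of both knockdown libraries above both controls, as did most of the mitotic and replication genes listed below. Over all genes tested, 6.66% were called higher and 4.18% lower, and the median log2 fold change was -0.0029. In a bulk sample, a larger share of cells that express these genes and more RNA per cell cannot be told apart. The plot of CPM by library shows the 4 values of each subunit.

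**Figure D1:**
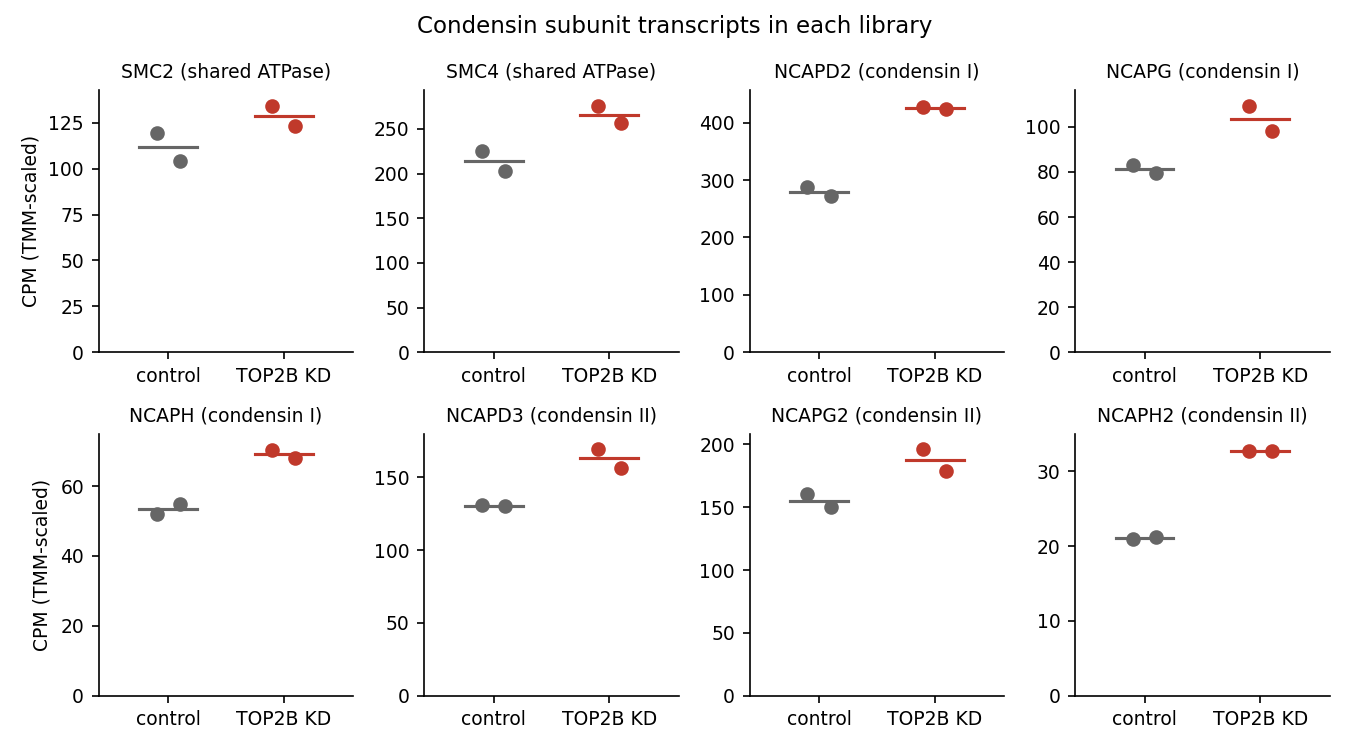
Transcript level of each condensin subunit in CPM (y axis, from 0) in the 2 control and 2 TOP2B knockdown libraries; points are libraries and bars are group means. In each of the 8 panels both knockdown points lie above both control points, and the ratio of the group means is widest for NCAPH2 (1.55-fold) and NCAPD2 (1.52-fold). The CPM range differs between panels.

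SMC2 and SMC4 are the ATPases common to both complexes. SMC2 (ENSG00000136824, chromosome 9 of GRCh38 from 104094260 to 104141419, plus strand) had 119.6 and 103.9 CPM in control and 134.3 and 123.3 CPM in knockdown cells. The lower knockdown library lay just above the higher control library. The log2 fold change of SMC2 was 0.20 (standard error 0.13, 95% interval -0.08 to 0.49, adjusted p = 0.347, edgeR's quasi-likelihood test). SMC4 (ENSG00000113810, chromosome 3 from 160399274 to 160434954, plus strand) had 225 and 203 CPM in control and 275 and 257 CPM in knockdown cells. Its log2 fold change was 0.31 (standard error 0.13, 95% interval 0.02 to 0.61, adjusted p = 0.162, same test). For either ATPase, replicate 1 was the higher library in both groups.

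Among the subunits of condensin I, only NCAPD2 passed the threshold. NCAPD2 (ENSG00000010292, chromosome 12 from 6493356 to 6531955, plus strand), a HEAT-repeat subunit, had 288 and 272 CPM in control and 427 and 423 CPM in knockdown cells. The group means were 279.9 ± 11.9 and 424.9 ± 2.36 CPM (SD, n = 2), so the gap was many times the spread within either group. NCAPD2 rose 1.52-fold, or by 0.60 on the log2 scale (standard error 0.13, 95% interval 0.31 to 0.90, adjusted p = 0.0193, edgeR's quasi-likelihood test). The call did not survive the loss of any library: the adjusted p was 0.067 without control replicate 1, 0.1535 without control replicate 2, 0.10005 without TOP2B knockdown replicate 1 and 0.101 without TOP2B knockdown replicate 2 (same test), with log2 fold changes from 0.56 to 0.65.

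NCAPG (ENSG00000109805, chromosome 4 from 17810979 to 17844865, plus strand), the other HEAT-repeat subunit of condensin I, had 83.2 and 79.4 CPM in control and 109.1 and 98.1 CPM in knockdown cells. Its log2 fold change was 0.35 (standard error 0.12, 95% interval 0.08 to 0.62, adjusted p = 0.0929, edgeR's quasi-likelihood test). NCAPH (ENSG00000121152, chromosome 2 from 96335766 to 96377091, plus strand), the kleisin that closes the condensin I ring, had 52.0 and 54.8 CPM in control and 70.4 and 67.9 CPM in knockdown cells. The replicates of NCAPH lay close together, and its log2 fold change of 0.37 (standard error 0.12, 95% interval 0.12 to 0.63) came nearest to the threshold among the subunits that were not called (adjusted p = 0.0685, same test).

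For condensin II, the kleisin NCAPH2 rose while its HEAT-repeat partners did not pass the threshold. NCAPH2 (ENSG00000025770, chromosome 22 from 50508224 to 50524780, plus strand) had 21.0 and 21.2 CPM in control and 32.7 and 32.7 CPM in knockdown cells. These values rest on 502 and 484 reads in control and 693 and 660 reads in knockdown cells. NCAPH2 rose 1.55-fold, or by 0.63 on the log2 scale (standard error 0.12, 95% interval 0.36 to 0.91, adjusted p = 0.0112, edgeR's quasi-likelihood test). Its value was the largest of the 8 with all 4 libraries, but without control replicate 1 NCAPD2 was higher, at 0.65 against 0.62. Without any single library the adjusted p stayed between 0.0211 and 0.0268 and the log2 fold change between 0.62 and 0.64.

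NCAPD3 (ENSG00000151503, chromosome 11 from 134150113 to 134225504, minus strand), the condensin II counterpart of NCAPD2, had 131 and 130.5 CPM in control and 169 and 157 CPM in knockdown cells. Its log2 fold change was 0.32 (standard error 0.12, 95% interval 0.05 to 0.59, adjusted p = 0.123, edgeR's quasi-likelihood test). NCAPG2 (ENSG00000146918, chromosome 7 from 158631169 to 158704804, minus strand), the counterpart of NCAPG, had 161 and 149.8 CPM in control and 196 and 179 CPM in knockdown cells. Its log2 fold change was 0.27 (standard error 0.13, 95% interval -0.01 to 0.55, adjusted p = 0.202, same test). The interval plot shows that those of SMC2 and NCAPG2 included 0 and that the intervals of all 8 subunits overlapped. Differences in change between subunits were not tested.

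**Figure D2:**
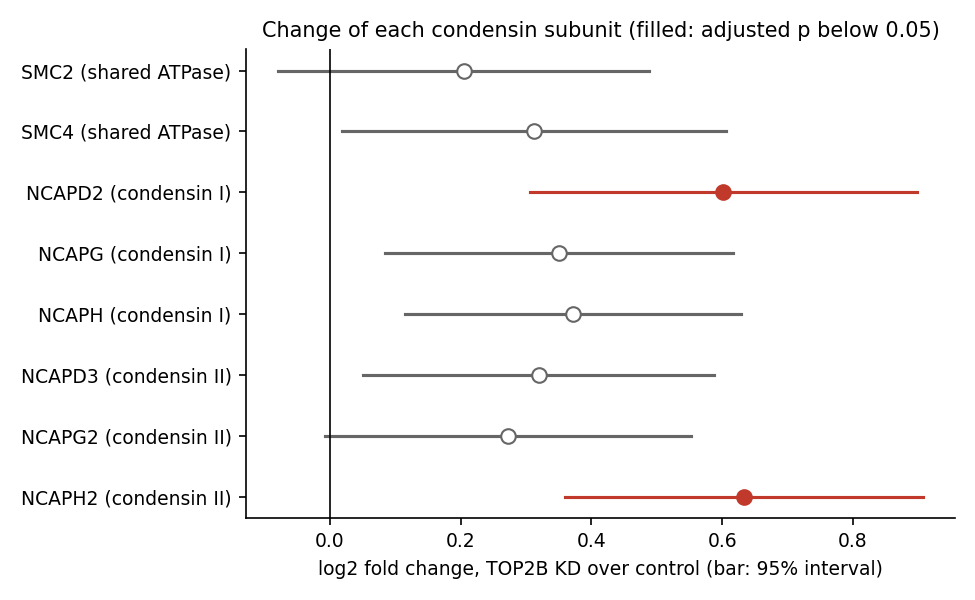
Log2 fold change of each condensin subunit, knockdown over control (x axis), with the 95% interval from the edgeR fit as a bar; filled points have an adjusted p below 0.05. NCAPH2 at 0.63 and NCAPD2 at 0.60 are filled, and the other 6 points lie between 0.20 and 0.37.

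Several subunits share exon bases with neighbouring genes, and the strand setting of the counting was not stated, so that reads of a gene and an opposite-strand neighbour may not be told apart. NCAPG shares 33.7% of its exon bases with LCORL on the opposite strand, with at most 17.1 CPM in a library and a log2 fold change of 0.24 (adjusted p = 0.401, edgeR's quasi-likelihood test). SMC4 shares 22.0% with IFT80 and TRIM59, which were not called. NCAPD3 shares 11.9% with JAM3, VPS26B and a further gene. VPS26B, a retromer subunit, rose by 0.86 on the log2 scale (adjusted p = 0.00243, same test). NCAPH2 shares 19.2% on the opposite strand with SCO2, and 19.2% on its own strand with ENSG00000272821, which had 14 to 23 reads in a library. SCO2 was not found by symbol in the count table, so its level and change were not examined. NCAPD2 shares 5.92% with MRPL51, which stood at a log2 fold change of 0.02, and SMC2, NCAPG2 and NCAPH share none.

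Levels were compared between subunits only after scaling by length, as RPKM (here CPM divided by the kilobases of merged exons). In control cells NCAPD2 was highest with 43.3 ± 1.83 RPKM, followed by SMC4 with 26.3 ± 1.93, NCAPG2 with 21.9 ± 1.09, SMC2 with 17.3 ± 1.71, NCAPG with 16.8 ± 0.55, NCAPH with 8.16 ± 0.31, NCAPD3 with 6.98 ± 0.006 and NCAPH2 with 4.73 ± 0.043 RPKM (SD, n = 2). Neighbours in this order did not overlap between their control libraries, apart from SMC2 and NCAPG. Both kleisins were thus among the lowest transcripts and the shared ATPase SMC4 lay above SMC2. Between counterparts, NCAPD2 exceeded NCAPD3 and NCAPH exceeded NCAPH2, whereas NCAPG2 of condensin II exceeded NCAPG of condensin I.

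The merged exons of NCAPD3 span 18698 bases, against 7369 bases of its canonical transcript, so that its place depends on the length used. With canonical transcripts, a choice made after the values were seen, NCAPD3 stood at 17.7 RPKM, level with NCAPG at 17.7 and SMC2 at 18.9 RPKM. The directions within the 3 pairs of counterparts were the same with either length, with NCAPG2 at 38.3 RPKM, NCAPD2 at 58.0, NCAPH at 8.86 and NCAPH2 at 6.32 RPKM. The plot of levels shows both scalings.

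**Figure D3:**
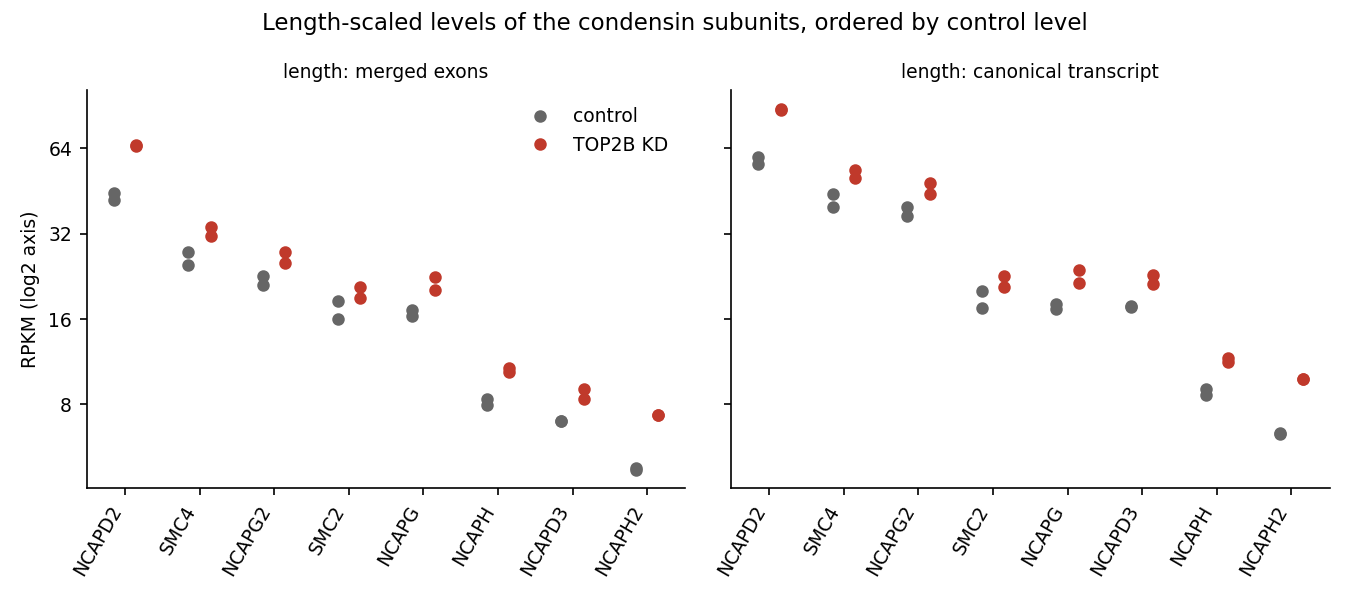
Length-scaled level of each condensin subunit in RPKM (y axis, log2 scale) by library, ordered by control level, with merged exons (left) or the canonical transcript (right) as the length; points are libraries. NCAPD2 is highest and NCAPH2 lowest in both panels, while NCAPD3 moves from the seventh to the sixth place.

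Summed over their 3 specific subunits, condensin I transcripts had 69.7 and 66.7 RPKM in control and 99.2 and 96.0 RPKM in knockdown cells, and condensin II transcripts had 34.3 and 32.8 RPKM in control and 43.98 and 40.9 RPKM in knockdown cells. The log2 ratio of condensin I to condensin II was 1.02 in either control library and 1.17 and 1.23 in the knockdown libraries. With canonical transcript lengths the same log2 ratio was lower, at 0.44 in either control library and 0.61 and 0.68 in the knockdown libraries, so the excess of condensin I depends on the lengths used. The ratio was higher in both knockdown libraries with either length, by 0.18 on average with merged exons and by 0.20 with canonical transcripts, and by 0.21 without length scaling. NCAPD2 holds most of the condensin I sum, while NCAPH2, at 4.73 RPKM in control, adds little to the condensin II sum. By counterparts, NCAPD2 rose more than NCAPD3 (log2 fold change 0.60 against 0.32) and NCAPG more than NCAPG2 (0.35 against 0.27). NCAPH rose less than NCAPH2 (0.37 against 0.63), so the shift of the sums does not hold for every pair. The ratio was not tested.

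The promoters of most subunits hold the letters of the cell cycle genes homology region (CHR), an element through which the MuvB complexes, with B-MYB among their partners, hold back or activate many genes of late cell cycle phases. RefSeq promoters of GRCh38.p14 (250 bases before to 50 bases after the start) matched 7 of the 8 subunits, with no entry for NCAPH2. TTTGAA on either strand was found in 5 of these 7, and TTTAAA, which reads the same on both strands, in NCAPH. Over 27305 promoters of the same length, 15.4% hold TTTGAA and 24.3% hold TTTGAA or TTTAAA. NCAPD3 holds neither. The windows below show the element in capitals in each of the 6 promoters found to hold it, 5′ to 3′ on the strand of the gene.
SMC2, chr9:104094294-104094323, plus strand, element from position -3: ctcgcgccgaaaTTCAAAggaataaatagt
SMC4, chr3:160399563-160399592, plus strand, from position -75: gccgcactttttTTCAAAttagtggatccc
NCAPD2, chr12:6493945-6493974, plus strand, from position -145: cagccgttgagaTTTGAActcggtatttgt
NCAPG, chr4:17810932-17810961, plus strand, from position -35: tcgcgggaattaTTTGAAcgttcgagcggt
NCAPG2, chr7:158704755-158704781, minus strand, from position 36: ccggcgggtgcgTTTGAAtctggtccg
NCAPH, chr2:96335786-96335815, plus strand, from position 33: cgacgcgcgcgaTTTAAAaccagctcagga
Positions count from the transcription start of the RefSeq promoter entry, which for SMC2, SMC4 and NCAPD2 lies inside the GENCODE gene, after its first base, and TTCAAA is TTTGAA read on the other strand. NCAPD2, the called subunit of condensin I, also holds 4 copies of CCAAT on the minus strand, at positions -199, -170, -70 and -30, none of which overlaps its TTTGAA. NCAPH is the only other of the 7 with CCAAT, which 35.7% of all promoters hold on either strand. A match shows the letters and not that a factor binds there.

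The 3′ UTRs of the subunits were searched for the word GCAACC, which was picked because it had stood out over all genes in earlier results of these libraries. It was found in 3 of the 8, with 2 sites in NCAPH2 and 1 each in SMC4 and NCAPD3. Over 19571 genes with a 3′ UTR in the canonical transcript, 20.8% hold the word. The sites are shown with the word in capitals, 5′ to 3′ on the strand of the transcript.
NCAPH2, chr22:50523804-50523833, plus strand: tgactagcctggGCAACCtgtttggtggag
NCAPH2, chr22:50524593-50524622, plus strand: atccacacctggGCAACCacacctgtcact
SMC4, chr3:160434710-160434739, plus strand: ggacataagttgGCAACCacttggtttttg
NCAPD3, chr11:134150377-134150406, minus strand: ggggcgcctggcGCAACCccaggagctgac
Of the called subunits, NCAPH2 thus has 2 sites and NCAPD2 has none. Among tested genes with an annotated 3′ UTR, 12.6% of 2927 genes with the word and 5.99% of 9590 genes without it were called higher. The word was picked from these same libraries, so this contrast is not independent of that choice. The length of the 3′ UTRs was not taken into account. The part of the word in the change of any subunit was not tested.

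Proteins that act with condensin on mitotic chromosomes were examined as a list of 20 partners and regulators, all of which were tested. Of these, 3 rose and 0 fell at an adjusted p below 0.05, with a median log2 fold change of 0.22. Among them were CDK1, the mitotic kinase that phosphorylates and activates condensins, and RCC1, the exchange factor for Ran on chromatin. CDK1 had 58.2 and 62.2 CPM in control and 79.2 and 80.8 CPM in knockdown cells, a log2 fold change of 0.41 (adjusted p = 0.0497, edgeR's quasi-likelihood test). RCC1 had 65.3 and 72.1 CPM in control and 92.4 and 97.9 CPM in knockdown cells, a log2 fold change of 0.47 (adjusted p = 0.0334, same test). The number called was 2 without control replicate 1 or TOP2B knockdown replicate 2, and 0 when control replicate 2 or TOP2B knockdown replicate 1 was left out.

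Other partners of the chromosome axis and surface did not pass the threshold. TOP2A had 499 and 432 CPM in control and 565 and 539 CPM in knockdown cells, a log2 fold change of 0.25 (95% interval -0.08 to 0.57, adjusted p = 0.322, edgeR's quasi-likelihood test), and TOP1 stood at 0.03. The chromokinesin KIF4A stood at 0.18 and MCPH1, which restrains condensin II in interphase, at 0.12. MKI67, the coat protein of mitotic chromosomes, had 569 and 438 CPM in control and 924 and 580 CPM in knockdown cells. Its log2 fold change of 0.58 was close to those of the called subunits, but the knockdown replicates lay far apart (standard error 0.22, adjusted p = 0.13, same test). AURKB and PLK1, kinases that act on condensins, stood at 0.38 and 0.36 with adjusted p values of 0.0662 and 0.0868 (same test). The heat map of these genes shows the pattern by library.

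**Figure D4:**
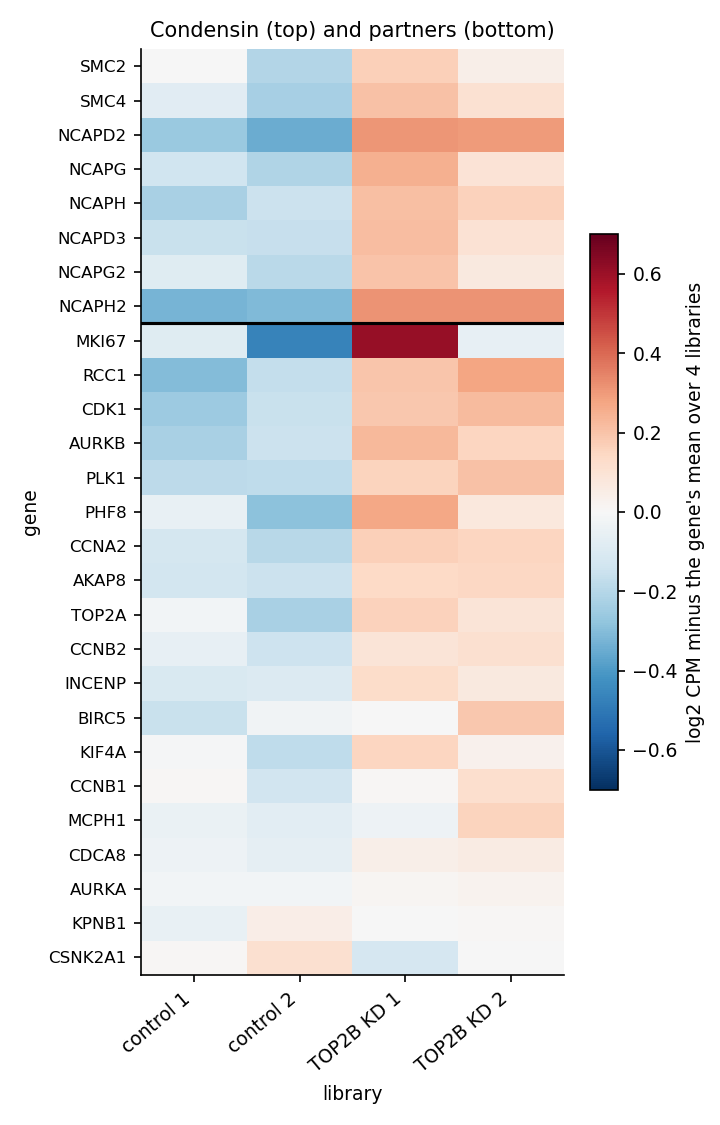
Log2 CPM minus each gene's mean over the 4 libraries (colour) for the 8 condensin subunits (above the line) and 19 partners and regulators (below, ordered by log2 fold change from MKI67 at 0.58 to CSNK2A1 at -0.12). The subunits are red or near white in the knockdown libraries and blue or near white in the control libraries, and MKI67 differs most between replicates.

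The related SMC complexes were examined in the same way. Of 13 cohesin genes, 1 rose and 1 fell, with a median log2 fold change of 0.31. ESCO2, the acetyltransferase that establishes cohesion in S phase, rose by 0.80 (adjusted p = 0.00383, edgeR's quasi-likelihood test), and MAU2, a subunit of the cohesin loader, fell by 0.48 (adjusted p = 0.0413, same test). The call of a lower gene was lost when control replicate 1 or either TOP2B knockdown replicate was left out. The cohesin ATPases SMC1A and SMC3 stood at 0.31 and 0.33, close to SMC4, with adjusted p values of 0.221 and 0.12 (same test). Of 10 genes of the SMC5/6 complex and SMCHD1, 1 rose and 0 fell, with a median of 0.17. That gene was SLF1, which helps to bring SMC5/6 to damaged DNA, at 0.46 (adjusted p = 0.0487, same test), and the number called fell to 0 without any of the 4 libraries. SMC5 stood at 0.38 (adjusted p = 0.067) and SMC6 at 0.12 (adjusted p = 0.603, same test).

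Condensin lay between the mitotic and the replication genes in its median change. Of 42 mitotic genes, 10 rose and 0 fell, with a median log2 fold change of 0.26, from ANLN at -0.14 to MYBL2, the gene of B-MYB, which rose by 1.10 (adjusted p = 0.00175, edgeR's quasi-likelihood test). Leaving out control replicate 2 left 6 of these calls in number, and leaving out TOP2B knockdown replicate 1 left 5. Of 36 replication genes, 24 rose and 0 fell, with a median of 0.62, from GINS1 at 0.02 to POLD1, the catalytic subunit of DNA polymerase delta, which rose by 1.36 (adjusted p = 0.00048, same test). The number called was 16 when control replicate 1 was left out and 15 when TOP2B knockdown replicate 2 was. In these terms 2 of 8 condensin subunits (25%) were called higher, against 23.8% of the mitotic and 66.7% of the replication genes, with 6.66% over all genes tested. Both knockdown libraries lay above both control libraries for 8 of 8 subunits, 35 of 36 replication genes and 31 of 42 mitotic genes. This separation also held for 18 of 20 partners, 8 of 13 cohesin genes, 5 of 10 SMC5/6 and SMCHD1 genes and 27.7% of all genes. Differences between the lists were not tested. The plot of gene lists sets these values side by side.

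**Figure D5:**
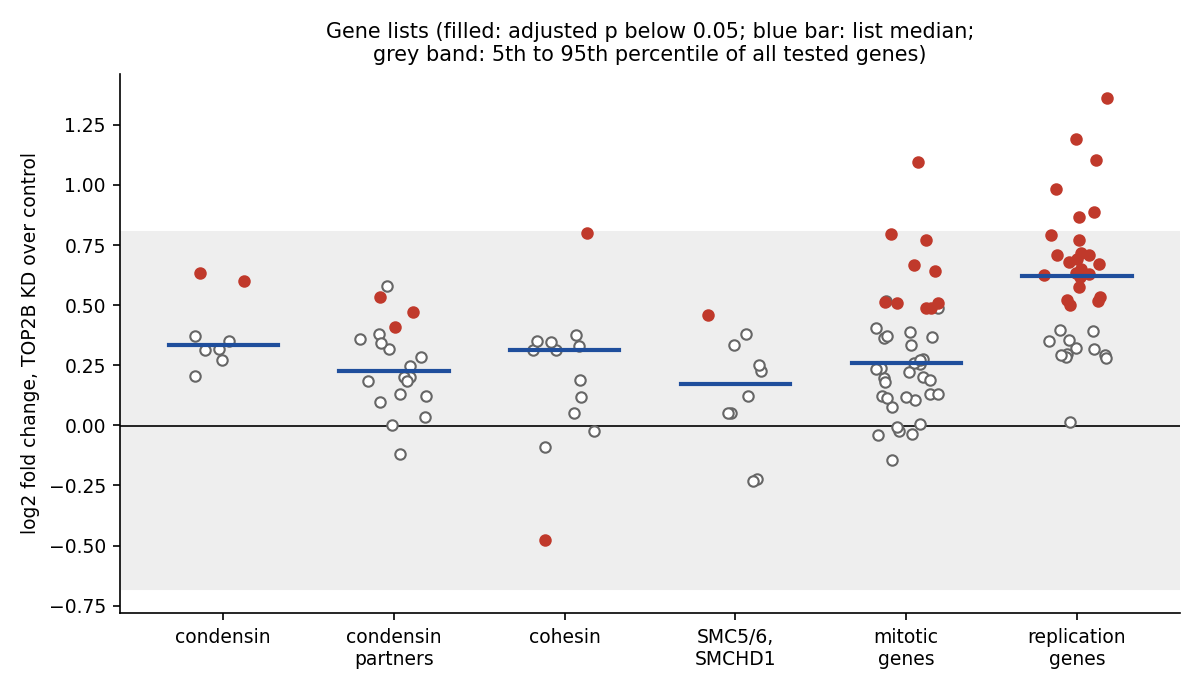
Log2 fold change, knockdown over control (y axis), of each tested gene in 6 lists; filled points have an adjusted p below 0.05, blue bars are list medians, and the grey band runs from the 5th to the 95th percentile of all tested genes (-0.68 to 0.80). All 8 condensin points lie above 0 and inside the band, with a median of 0.33.

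Most subunits were higher in replicate 1 than in replicate 2. In control cells this held for 6 of the 8, all but the kleisins NCAPH and NCAPH2, and in knockdown cells for 7 of the 8, all but NCAPH2. The median difference of log2 CPM between replicates 1 and 2 was 0.08 in control and 0.11 in knockdown cells over the subunits, against 0.01 and 0.002 over all genes tested. Averaged over the 8, the centred log2 CPM was -0.16 and -0.22 in the control libraries and 0.23 and 0.15 in the knockdown libraries.

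The search covered 9479 other genes whose mean reached 10 CPM. The 5 whose centred log2 CPM over the 4 libraries lay nearest to this average were SPATA33, POMGNT1, NASP, STAG2 and MLX, at Euclidean distances of 0.015 to 0.031. NASP is a histone chaperone and STAG2 a subunit of cohesin. The subunits themselves lay farther from their own average, from 0.059 for NCAPG to 0.262 for NCAPH2. With 4 libraries such a likeness is a description only.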

How the data were processed

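RNA-seq was measured in 2 control and 2 TOP2B knockdown libraries, grouped by their labels. Per the submitters' processing notes, FastQC 0.11.6 and STAR 2.5.4a were used, with alignment to GRCh38, and the authors counted reads per gene while mapping. The deposited values are raw counts, whole numbers without normalization. The table holds 4 further columns with identical values, which were not used. Column names carry a stranded paired-end tag, while the methods give single-end reads.

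The 15356 genes with 10 or more counts in 2 or more libraries were fitted with edgeR 4.0.16 in R 4.3.3 (glmQLFit, glmQLFTest, TMM), with Benjamini-Hochberg adjustment over all of them. P-values measure the spread between these libraries only. Log2 CPM used a prior count of 2. Positions, exon lengths and 3′ UTRs came from GENCODE v44 on GRCh38, and promoters from RefSeq.

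The members and gene lists were chosen with earlier results of these data known, so no list was tested. Named genes were the 8 members, TOP1, TOP2A and TOP2B, called genes with KIF4A, MKI67 and MCPH1 among the partners, called genes and ATPases of cohesin and SMC5/6, the extremes of the mitotic and replication lists and the 5 nearest profiles. AURKB, PLK1, CSNK2A1 and the overlapping genes were named after their values were seen. The values of 1 called partner are not reported here. Alternatives were DESeq2 size factors, library sizes alone, the DESeq2 1.42.0 Wald test, no filter, a mean of at least 100 counts, the replicate number as a block, and fits without each library, in which the lone library is assumed to vary like the others. Scripts were tested on simulated data.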

Additional observations from a re-analysis of the deposited data

How the results depend on the processing

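Over 2 other scalings, the Wald test of DESeq2, no filter and a filter at a mean of 100 counts, all 8 subunits kept a positive log2 fold change and their side of the threshold, and the number called higher stayed at 2. Without any 1 library all 8 values stayed positive, NCAPH2 stayed past the threshold and NCAPD2, at 0.56 to 0.65, did not, so that 1 subunit was called in each of the 4 fits. In these fits the median of the subunits ranged from 0.27 to 0.37. The number called higher ranged from 0 to 2 for the partners, from 15 to 20 for replication genes, from 5 to 9 for mitotic genes and was 0 for SMC5/6, the number of cohesin genes called lower ranged from 0 to 1, and medians ranged from 0.24 to 0.33 for cohesin, 0.10 to 0.28 for SMC5/6 and 0.21 to 0.33 for mitotic genes.

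The number of called SMC5/6 genes was 0 with the size factors of DESeq2, with unnormalized library sizes, with the Wald test and with the filter at 100 counts, and that filter also left 0 cohesin genes called lower. The cause was not tested.

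With the replicate number as a block, all 8 subunits were called higher, at log2 fold changes of 0.21 (SMC2), 0.31 (SMC4), 0.35 (NCAPG), 0.37 (NCAPH), 0.32 (NCAPD3) and 0.27 (NCAPG2) for those newly past the threshold. The block also raised the calls over all genes from 10.8% to 44.2% (22.4% higher). It called 14 partners higher and 1 lower, 8 cohesin genes higher, 5 SMC5/6 genes higher and 2 lower, and 30 mitotic genes higher and 1 lower. Same-numbered libraries deviated together (correlation across genes 0.479), but nothing in the labels ties the numbers to a shared batch and there are only 2 pairs, so the replicates were treated as unpaired.

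Without length scaling the condensin I to II ratio changed by 0.21. With canonical transcript lengths the control RPKM was 41.9 for SMC4, 58.0 for NCAPD2, 17.7 for NCAPG, 8.86 for NCAPH, 17.7 for NCAPD3, 38.3 for NCAPG2 and 6.32 for NCAPH2.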
